A study of Mus musculus with 28 samples.

Results

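The genes described here handle fatty acids and build or coat lipid droplets in microglia. They were taken by name from the deposited count table: *Fabp3*, *Fabp5*, *Plin2*, *Plin3*, *Ch25h*, *Scd2*, *Fasn*, *Dgat1*, *Dgat2* and *Acsl1*, 10 of 48587 genes. All 10 were found and all 10 passed the filter on low counts. Each of the 28 libraries held the RNA of CD11b+CD45low microglia sorted by flow cytometry from the hippocampus of 1 mouse, at 16 weeks of age by the labels. Wild-type (WT) and 5xFAD mice were kept under specific pathogen free (SPF) conditions, were germ-free (GF), or received antibiotics in the drinking water for 8 weeks (ABX). The antibiotics were vancomycin, cefoxitin, gentamicin and metronidazole. The WT mice numbered 5 under SPF, 4 under GF and 5 under ABX conditions, and the 5xFAD mice 3, 5 and 6. The labels thus give more ABX 5xFAD mice than the study describes for any condition. All were males on the C57BL/6J background. The 5xFAD mice were heterozygous for human transgenes with familial Alzheimer's disease mutations, driven by the neuronal Thy-1 promoter. Transgene RNA was not measured here. GF mice came from a facility in Bern and the other mice from Freiburg, so that colonization and origin cannot be told apart.

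A cell that takes up fatty acids shields them with small binding proteins, activates them to acyl-CoA and then burns them, builds them into membranes or stores them as triglyceride. Triglyceride and cholesteryl ester are stored in lipid droplets, whose surface is coated by perilipins. Microglia are the resident macrophages of the brain. Near amyloid plaques they clear lipid-rich debris, and lipid droplets and genes of lipid metabolism are well known features of plaque-associated microglia.

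Libraries held 14441610 to 29977395 reads assigned to genes. Values are counts per 1000000 reads (CPM) after TMM scaling, a correction for differences in RNA composition between libraries. Differences were tested with the quasi-likelihood test of edgeR over 15298 genes, with Benjamini-Hochberg adjusted p-values, and a gene was called when its adjusted p was under 0.05. The microglial markers *P2ry12* and *Tmem119* were abundant in every library, with lowest values of 4137 and 2782 CPM, and all 10 microglial markers were detected. Summed neutrophil markers reached 56.5 to 221 CPM in the 3 SPF 5xFAD libraries and 117 CPM in ABX 5xFAD mouse FAD_ABX_1151, and at most 0.774 CPM in the other 24 libraries. Summed markers of border-associated macrophages ranged from 33.99 to 253 CPM in ABX 5xFAD mice, from 10.0 to 81.0 CPM in GF 5xFAD mice, from 16.1 to 29.2 CPM in SPF 5xFAD mice, from 10.7 to 43.9 CPM in GF WT mice and from 3.48 to 8.15 CPM in SPF and ABX WT mice. Summed microglial markers ranged from 65024 to 72706 CPM in WT and from 50729 to 62398 CPM in 5xFAD mice. The 4 libraries with neutrophil markers also share 1 of 3 numbering styles of the library descriptions. All SPF WT and ABX WT libraries share the second style, and all GF and the other 5 ABX 5xFAD libraries share the third. For the genotypes in SPF and in ABX mice, for GF compared with SPF mice, and for GF compared with ABX WT mice, numbering and group cannot be told apart, whereas GF 5xFAD against GF WT and ABX against SPF in WT each lie within 1 style. Every interaction of genotype and housing tested below includes the genotypes in SPF or in ABX mice, so that the same limit holds there. Mouse FAD_GF_201, 5xFAD by title and genotype but WT by its description, was kept in the GF 5xFAD group.

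In the presence of the 5xFAD transgenes, microglia of all 3 housing conditions had far more RNA of the fatty acid binding proteins *Fabp3* and *Fabp5* and of the oxysterol enzyme *Ch25h*, and moderately more of *Plin2* and *Scd2*. In SPF mice 5 of 10 members rose and 0 fell, against 4.57% of all genes tested called in either direction and 3.73% called higher. In GF mice 8 rose and 1 fell, against 15.6% of all genes called, 9.43% higher and 6.2% lower. In ABX mice 8 rose and 1 fell, against 14.4% called, 9.45% higher and 4.98% lower. The median log2 fold change of the members was 0.64, 0.96 and 1.16 in SPF, GF and ABX mice, where that of all genes tested was -0.03, -0.03 and -0.01. As the RNA of many sorted cells was sequenced together, more cells expressing a gene and more RNA per cell cannot be told apart. Markers of other cells moved with genotype too, and their part in the values was not tested. Between 5xFAD and WT mice, 4 of 4 tested neutrophil markers were called higher in SPF and in ABX mice, and 5 and 7 of 7 tested markers of border-associated macrophages. In ABX mice the neutrophil markers rested on FAD_ABX_1151, at 117 CPM in sum, where the other 5 had at most 0.774 CPM. In SPF mice 1 of 4 monocyte and 1 of 4 endothelial markers were called higher too. In ABX mice 2 of 4 monocyte markers were higher and 1 lower, and 1 of 4 endothelial markers was higher and 1 lower. The 1 tested T and B cell marker was higher in ABX mice. In GF mice 0 of 4 neutrophil and 0 of 7 border-associated macrophage markers were called. There 2 of 7 astrocyte markers were higher and 1 lower, and 1 of 4 endothelial markers was lower. Of 10 microglial markers, 3, 4 and 5 were called lower in SPF, GF and ABX mice.

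**Figure D1:**
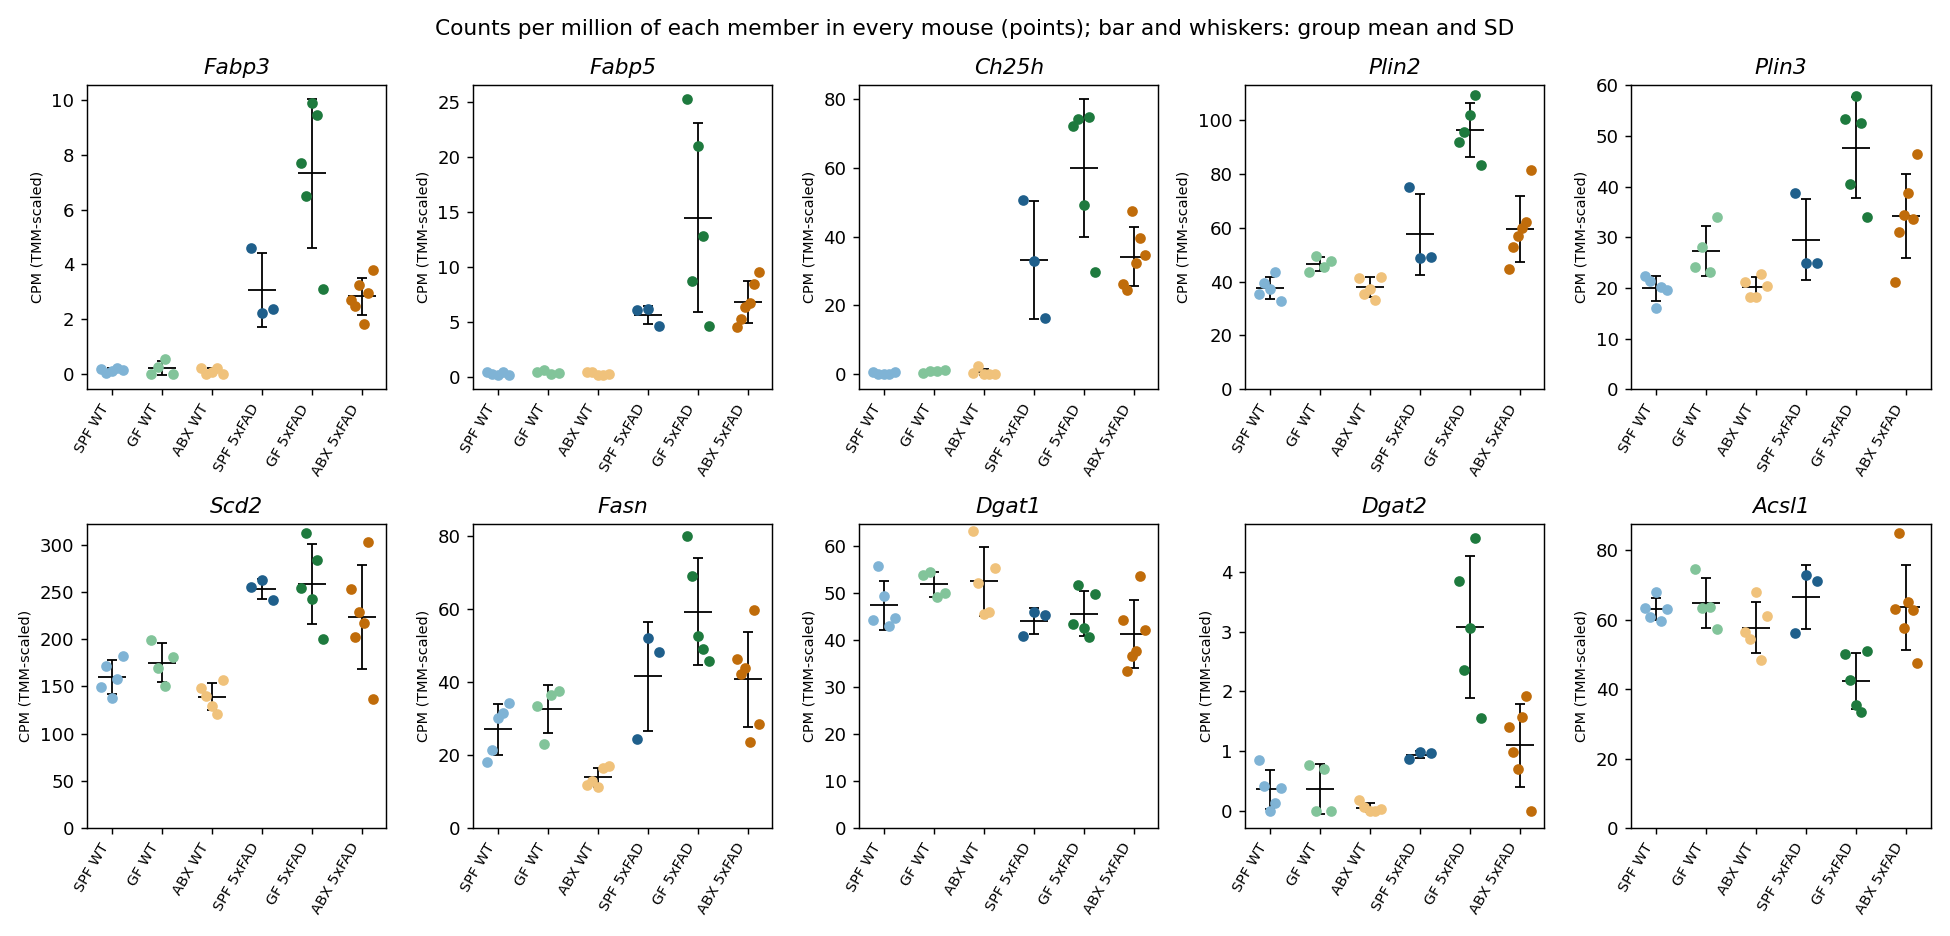
CPM values (y axis, TMM-scaled, linear) of the 10 members in each of the 6 groups (x axis). Points are single mice, and the bar and whiskers are the group mean and SD; for *Fabp3*, *Fabp5* and *Ch25h* all 14 5xFAD mice lie above all 14 WT mice.

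*Fabp3* encodes the heart-type fatty acid binding protein, which carries long-chain fatty acids through the cytosol. Its gene spans chr4:130308595-130315463 (GRCm38, plus strand). In WT mice it was barely detected, at 0.134 ± 0.0654 CPM in SPF (SD, n = 5), 0.196 ± 0.255 CPM in GF (n = 4) and 0.101 ± 0.114 CPM in ABX mice (n = 5), on 0 to 10 reads per library. The 3 SPF 5xFAD mice had 2.21, 2.36 and 4.62 CPM. The 5 GF 5xFAD mice had 3.11, 6.49, 7.69, 9.47 and 9.88 CPM. The 6 ABX 5xFAD mice ranged from 1.81 to 3.78 CPM with a median of 2.83 CPM. No 5xFAD mouse overlapped with a WT mouse, and 4 of the 5 GF 5xFAD mice lay above every other mouse. *Fabp3* was higher in 5xFAD mice by log2 fold changes of 4.46 ± 0.70 (SE) under SPF, 5.19 ± 0.74 under GF and 4.79 ± 0.70 under ABX conditions, with adjusted p-values in edgeR of 7.32e-05, 7.22e-06 and 1.17e-05. As the WT values rest on few reads, the size of these folds is uncertain, and without WT_GF_230 the value in GF mice was 6.46, and with voomWithQualityWeights 5.85. A processed copy of the gene, *Fabp3-ps1*, held at least 25 reads per library and passed the threshold in none of the 12 comparisons, while its mean in GF 5xFAD mice, 6.87 ± 2.02 CPM (SD, n = 5), was the highest of the 6 groups. Exons of *Fabp3* also share 80 bases with the antisense gene *Gm10570* and 81 bases with *Zcchc17*, whose reads cannot be told apart without strand.

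*Fabp5*, the epidermal fatty acid binding protein, serves the same task in macrophages and other cells (chr3:10012548-10016607, plus strand). All 14 WT mice had between 0.109 and 0.558 CPM, on at most 10 reads. SPF 5xFAD mice had 4.62, 6.03 and 6.15 CPM. GF 5xFAD mice spread widely, with 4.57, 8.66, 12.8, 21.03 and 25.3 CPM. ABX 5xFAD mice ranged from 4.51 to 9.51 CPM with a median of 6.51 CPM. Both genotypes were fully separate, and the lowest GF 5xFAD mouse, FAD_GF_201, lay below the SPF and within the range of the ABX 5xFAD mice. *Fabp5* rose by log2 fold changes of 4.30 ± 0.45 (SPF), 5.21 ± 0.48 (GF) and 4.67 ± 0.44 (ABX), with adjusted p-values in edgeR of 7.41e-08, 3.05e-09 and 4.63e-09.

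*Ch25h* encodes cholesterol 25-hydroxylase, which makes 25-hydroxycholesterol, a signal of sterol excess and of inflammation. The gene has a single exon (chr19:34473786-34475135, minus strand), of which 159 bases overlap the antisense gene *Gm26902*. In 13 of 14 WT mice *Ch25h* stood at 0 to 1.03 CPM, and 1 ABX WT mouse, WT_ABX_910, had 2.18 CPM. The SPF 5xFAD mice reached 16.2, 33.0 and 50.6 CPM. GF 5xFAD mice had 29.6, 49.3, 72.2, 74.4 and 74.9 CPM. In ABX 5xFAD mice it ranged from 24.4 to 47.3 CPM with a median of 33.5 CPM. The lowest 5xFAD mouse was thus well above the highest WT mouse. With log2 fold changes of 6.89 ± 0.67 (SPF), 6.55 ± 0.67 (GF) and 6.35 ± 0.62 (ABX), *Ch25h* had the largest change of the members under all 3 conditions (adjusted p in edgeR 1.42e-08, 2.40e-08 and 1.21e-08). Without WT_ABX_910 the value in ABX mice was 9.01, so that its size rests on this mouse, and with voomWithQualityWeights it was 7.41.

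The perilipins coat lipid droplets. *Plin2* (chr4:86648386-86670060, minus strand) encodes the perilipin that is found on droplets of most cells and is degraded when it is not bound to them, and *Plin3* (chr17:56278962-56290511, minus strand) a perilipin that moves from the cytosol to nascent droplets. Promoters are shown for both perilipins, the pair of members that varied most alike within groups, for *Fasn*, the one member called between housing conditions in WT mice, and for *Ch25h*, the member with the largest change. They run from 250 bases before to 50 bases after the RefSeq start, on the strand of the gene (GRCm38.p6). Capitals mark matches, on either strand, to the CCAAT box, GC box, E-box, AP-1, TATA box or sterol response motifs, whose letters are spelled out after the sequences.
Plin2, chr4:86670010-86670309: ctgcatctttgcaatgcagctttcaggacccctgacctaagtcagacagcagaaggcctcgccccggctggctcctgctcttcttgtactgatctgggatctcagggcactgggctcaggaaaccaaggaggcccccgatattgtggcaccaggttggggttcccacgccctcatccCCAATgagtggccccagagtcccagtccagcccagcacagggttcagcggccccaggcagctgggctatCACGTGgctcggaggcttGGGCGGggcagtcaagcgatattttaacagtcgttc
Plin3, chr17:56290462-56290761: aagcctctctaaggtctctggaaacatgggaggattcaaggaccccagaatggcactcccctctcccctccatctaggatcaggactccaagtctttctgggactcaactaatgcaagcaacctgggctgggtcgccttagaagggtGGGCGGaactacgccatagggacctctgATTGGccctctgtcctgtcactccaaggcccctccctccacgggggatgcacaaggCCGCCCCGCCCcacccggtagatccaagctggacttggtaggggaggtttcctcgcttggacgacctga
Fasn, chr11:120824498-120824797: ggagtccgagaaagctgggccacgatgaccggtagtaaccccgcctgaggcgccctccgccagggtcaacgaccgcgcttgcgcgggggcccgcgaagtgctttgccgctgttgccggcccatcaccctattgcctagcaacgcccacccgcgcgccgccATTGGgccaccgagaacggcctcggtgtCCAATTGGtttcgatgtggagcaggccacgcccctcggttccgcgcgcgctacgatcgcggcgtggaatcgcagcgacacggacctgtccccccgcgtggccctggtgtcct
Ch25h, chr19:34475099-34475398: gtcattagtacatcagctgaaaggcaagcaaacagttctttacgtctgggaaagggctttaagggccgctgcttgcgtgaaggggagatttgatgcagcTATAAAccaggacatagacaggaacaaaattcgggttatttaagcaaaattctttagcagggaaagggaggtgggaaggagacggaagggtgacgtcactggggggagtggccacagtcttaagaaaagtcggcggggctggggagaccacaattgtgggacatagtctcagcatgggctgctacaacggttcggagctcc
Both perilipin promoters hold CCAAT at a like place, 73 bases before the start in *Plin2* and 75 bases before it, on the other strand, in *Plin3*. CCAAT is common, and 37.4% of 32851 RefSeq promoters of this length hold it. Both also hold the GC box GGGCGG, with 2 overlapping matches in *Plin3*, as do 35.7% of all promoters. The *Plin2* promoter alone among the 7 RefSeq promoters of members holds the E-box CACGTG, which 7.15% of all promoters hold. In *Fasn* 3 matches to CCAAT lie between 90 and 59 bases before the start, 2 of them overlapping. The *Ch25h* window held the letters TATAAA at 151 bases before the start, as did 13.6% of all promoters at any place. Whether they serve as a TATA box was not tested. The AP-1 letters TGANTCA (7.81% of all promoters), an NF-kB element of GGGA and TTTCC with 1 base between (0.411%), and AGGTCA repeated after 4 bases (LXR, 0.0152%) or after 1 base (PPAR, 0.0396%) were in none of the 7 windows, and the letters TCACNCCAC of a sterol response element (1.24%) were only in the second of the 2 *Acsl1* promoters. *Fabp3* also matched a RefSeq promoter, and *Fabp5*, *Scd2*, *Dgat1* and *Dgat2* matched none.

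*Plin2* stood at 32.7 to 43.7 CPM in SPF WT, 43.7 to 49.4 CPM in GF WT and 33.3 to 41.9 CPM in ABX WT mice. SPF 5xFAD mice had 48.9, 49.1 and 75.04 CPM. In GF 5xFAD mice the values were 83.2, 91.8, 95.7, 102 and 109 CPM. ABX 5xFAD mice ranged from 44.8 to 81.4 CPM with a median of 58.4 CPM. Each 5xFAD group lay above the WT group of the same housing without overlap, and every GF 5xFAD mouse lay above every other mouse. *Plin2* rose by log2 fold changes of 0.61 ± 0.15 (SPF), 1.05 ± 0.14 (GF) and 0.65 ± 0.13 (ABX), with adjusted p-values in edgeR of 0.0113, 3.21e-06 and 0.000578. In SPF mice the rise rested on mouse FAD_SPF_1144. Leaving it out gave a log2 fold change of 0.38 with an adjusted p in edgeR of 0.288.

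*Plin3* ranged from 16.1 to 22.4 CPM in SPF WT, from 23.1 to 33.99 CPM in GF WT and from 18.1 to 22.7 CPM in ABX WT mice. The SPF 5xFAD mice reached 24.8, 25.0 and 38.7 CPM. GF 5xFAD mice had 33.99, 40.5, 52.6, 53.3 and 58.0 CPM. In ABX 5xFAD mice it ranged from 21.1 to 46.4 CPM with a median of 33.97 CPM. Again FAD_SPF_1144 was the highest of its group, and mouse FAD_ABX_1151, the lowest ABX 5xFAD mouse, lay within the ABX WT range. *Plin3* rose by a log2 fold change of 0.80 ± 0.19 in GF and 0.76 ± 0.17 in ABX mice (adjusted p in edgeR 0.00263 and 0.00206). In SPF mice the value was 0.56 ± 0.20 (adjusted p in edgeR 0.115), and it passed with gene length offsets (0.0330), with only the groups compared (0.0393) and over the 26 mice without FAD_ABX_1151 and FAD_ABX_1482 (0.0487).

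*Fasn* and *Scd2* make new fatty acids. *Scd2* (chr19:44293676-44306864, plus strand) encodes a stearoyl-CoA desaturase of the brain, which turns saturated into monounsaturated fatty acids. Its exons contain the microRNA gene *Mir5114*. *Scd2* had the highest level of the members per length in all 6 groups, at 25.5 to 47.4 RPKM (CPM per 1000 bases of the deposited gene length) on average. In CPM it ranged from 138 to 182.3 in SPF WT, 150 to 199.3 in GF WT and 121 to 157 in ABX WT mice. SPF 5xFAD mice had 242, 255 and 262 CPM. In GF 5xFAD mice the values were 200, 243, 254, 284 and 313 CPM. ABX 5xFAD mice ranged from 137 to 303 CPM with a median of 223 CPM. Of 14 5xFAD mice, 13 lay above every WT mouse, the exception being FAD_ABX_1482. *Scd2* rose by log2 fold changes of 0.66 ± 0.16 (SPF), 0.56 ± 0.15 (GF) and 0.68 ± 0.14 (ABX) (adjusted p in edgeR 0.00916, 0.00842 and 0.000641).

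*Fasn* encodes fatty acid synthase, which builds palmitate from malonyl-CoA (chr11:120805846-120824547, minus strand). SPF WT mice had 18.1 to 34.2 CPM and GF WT mice 23.1 to 37.6 CPM. All 5 ABX WT mice, with 11.1, 11.9, 12.8, 16.5 and 17.0 CPM, lay below the lowest mouse of both. The SPF 5xFAD mice reached 24.5, 48.3 and 52.0 CPM. GF 5xFAD mice had 45.8, 49.2, 52.7, 69.0 and 80.04 CPM. In ABX 5xFAD mice it ranged from 23.6 to 59.9 CPM with a median of 43.1 CPM. *Fasn* rose by a log2 fold change of 1.55 ± 0.23 in ABX mice and 0.86 ± 0.25 in GF mice (adjusted p in edgeR 1.71e-05 and 0.0159). Without GF WT mouse WT_GF_229 the value in GF mice was 0.73 with an adjusted p in edgeR of 0.0697. In SPF mice it was 0.62 ± 0.26 (adjusted p in edgeR 0.238), and only limma's voomWithQualityWeights, which weights libraries by quality, put it past the threshold, at an adjusted p of 0.00336.

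The last step of triglyceride synthesis is carried out by either of 2 unrelated acyltransferases. *Dgat1* (chr15:76502015-76511951, minus strand) was the abundant one, at 13.5 to 17.2 RPKM on average in the 6 groups, and *Dgat2* (chr7:99153658-99182719, minus strand) was near the limit of detection, at 0.0176 to 0.999 RPKM. WT mice had 43.0 to 63.2 CPM of *Dgat1* and 5xFAD mice 33.3 to 53.6 CPM, so that the genotypes overlapped. The log2 fold change of *Dgat1* was -0.10 ± 0.14 in SPF and -0.18 ± 0.12 in GF mice (adjusted p in edgeR 0.853 and 0.352). In ABX mice *Dgat1* fell by 0.35 ± 0.11 on the log2 scale with an adjusted p in edgeR of 0.0337. This call was lost without the filter on low counts (0.0866), with only the groups compared (0.128) and without any of the single mice FAD_ABX_1452, FAD_ABX_1453, FAD_ABX_1455, WT_ABX_909, WT_ABX_910 and WT_ABX_932 (up to 0.131).

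*Dgat2* was counted with 0 to 21 reads in WT libraries, 5 of which had none. SPF 5xFAD mice had 0.869, 0.967 and 0.984 CPM. In GF 5xFAD mice the values were 1.56, 2.36, 3.06, 3.84 and 4.58 CPM. ABX 5xFAD mice ranged from 0 in FAD_ABX_1482 to 1.93 CPM with a median of 1.19 CPM. Each GF 5xFAD mouse lay above all 14 WT mice. The log2 fold change was 3.01 ± 0.96 in GF and 4.24 ± 1.03 in ABX mice (adjusted p in edgeR 0.0300 and 0.00509), and 1.36 ± 0.95 in SPF mice (0.614). In GF mice the call was lost without FAD_GF_185, WT_GF_229 or WT_GF_231 (0.0586, 0.0799 and 0.0834). In SPF mice it was made by voomWithQualityWeights alone (0.0425). The value in GF mice was 3.64 without WT_GF_199 and 4.65 with voomWithQualityWeights, and that in ABX mice 5.17 without WT_ABX_909. In SPF mice it was 2.07 with voomWithQualityWeights.

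*Acsl1* encodes an acyl-CoA synthetase that activates long-chain fatty acids (chr8:46471037-46536051, plus strand), and 1039 bases of its exons overlap the antisense gene *Gm45244*. It was the one member called lower in GF mice, where *Dgat1* had a negative value that did not pass. It stood at 59.8 to 67.9 CPM in SPF WT, 57.4 to 74.6 CPM in GF WT and 48.5 to 68.0 CPM in ABX WT mice. GF 5xFAD mice had 33.3, 35.4, 42.5, 50.1 and 50.8 CPM, all below every GF WT mouse. The SPF 5xFAD mice reached 56.0, 71.1 and 72.7 CPM, and ABX 5xFAD mice ranged from 47.7 to 85.1 CPM with a median of 62.9 CPM, both overlapping with WT mice. In GF mice *Acsl1* fell by 0.61 ± 0.14 on the log2 scale (adjusted p in edgeR 0.00244). The values were 0.08 ± 0.15 in SPF and 0.14 ± 0.13 in ABX mice (0.919 and 0.520).

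**Figure D2:**
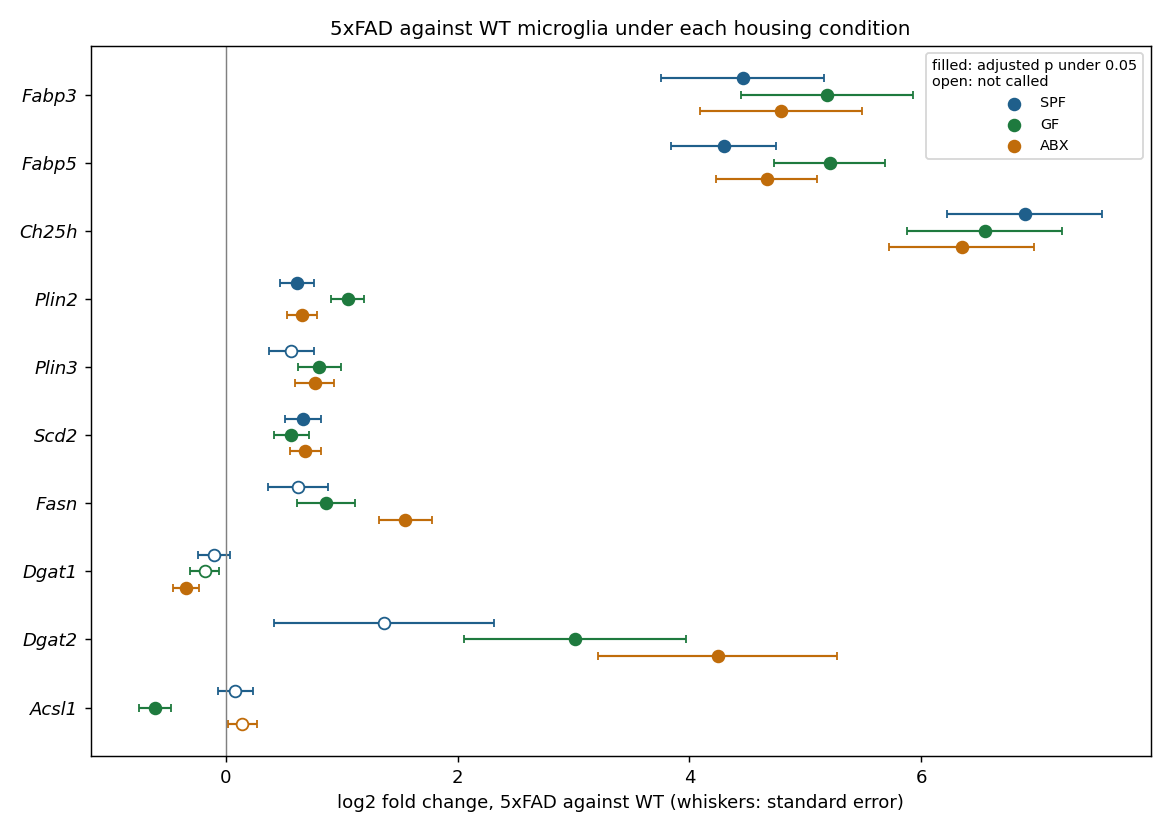
Log2 fold change between 5xFAD and WT mice (x axis) for each member (y axis) in SPF, GF and ABX mice, with standard errors as whiskers; filled points passed an adjusted p of 0.05. *Fabp3*, *Fabp5* and *Ch25h* lie between 4.30 and 6.89 under all conditions, and *Acsl1* is below 0 in GF mice.

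Whether the housing condition changed the effect of the genotype was tested as an interaction. Each interaction includes the genotypes in SPF or in ABX mice, where numbering and genotype cannot be told apart. Between GF and SPF mice and between ABX and SPF mice, edgeR called 0 genes (0% of all genes tested) and 0 members. At an unadjusted p under 0.05 there were 1304 genes, 2 of them members, and 1032 genes, 1 of them a member. DESeq2 called 0 members in both, and voomWithQualityWeights called *Acsl1* between GF and SPF mice (adjusted p 0.0264). Between GF and ABX mice 1 member, *Acsl1*, was called lower, where 1.76% of all genes were called and 0.915% lower. Its genotype effect was lower in GF mice by a log2 difference of -0.75 ± 0.19 (adjusted p in edgeR 0.0399). Over all alternatives this adjusted p ranged from 0.00785 to 0.0925, and 14 of 38 took it over the threshold. In the same interaction 7 of 7 tested markers of border-associated macrophages were called lower, and their part in the value of *Acsl1* was not tested. For *Plin2* the genotype effect in GF mice differed by 0.44 ± 0.21 from that in SPF mice and by 0.40 ± 0.19 from that in ABX mice (adjusted p in edgeR 0.572 and 0.296). For *Fasn* the effect in ABX mice differed by 0.93 ± 0.35 from that in SPF mice (adjusted p in edgeR 0.704).

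Among 5xFAD mice, microglia of GF mice had more *Plin2*, *Plin3* and *Fabp5* RNA and less *Acsl1* RNA than those of SPF mice. Thus 3 members rose and 1 fell, against 12.8% of all genes called, 6.97% higher and 5.86% lower. The median log2 fold change of the members was 0.72 and that of all genes tested 0.02. *Plin2* was higher in 5 of 5 GF mice than in any SPF mouse, by a log2 fold change of 0.74 ± 0.16 (adjusted p in edgeR 0.00327), and it passed under all 38 alternatives, with at most 0.0451. *Acsl1* was lower in 5 of 5 GF mice than in any SPF mouse, by -0.65 ± 0.15 (adjusted p in edgeR 0.00576). With gene length offsets it was -0.37, with an adjusted p in edgeR of 0.105. *Fabp5* rose by a log2 fold change of 1.37 ± 0.42 (adjusted p in edgeR 0.0291), although mouse FAD_GF_201 lay below all 3 SPF mice. *Plin3* rose by 0.69 ± 0.20 (adjusted p in edgeR 0.0238), with 4 of 5 GF mice above every SPF mouse. Without FAD_GF_181, FAD_GF_184, FAD_SPF_1146 or FAD_SPF_1148, *Fabp5* and *Plin3* both lost the call, and the number of members called fell from 4 to 2. In these cases the adjusted p in edgeR was between 0.0743 and 0.147 for *Fabp5* and between 0.0509 and 0.163 for *Plin3*. *Fabp5* was also lost without FAD_SPF_1144 (0.0672). *Plin3* was also lost with gene length offsets (0.0744) and with GC content offsets (0.0537), and both were lost with only the groups compared (0.0862 and 0.0622).

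The other 6 members did not pass between GF and SPF 5xFAD mice. The log2 fold changes were 1.26 ± 0.64 for *Fabp3*, 0.85 ± 0.51 for *Ch25h*, 0.51 ± 0.27 for *Fasn* and 1.71 ± 0.99 for *Dgat2*, with adjusted p-values in edgeR of 0.207, 0.304, 0.224 and 0.285. voomWithQualityWeights called *Fabp3*, *Ch25h* and *Dgat2* higher as well, with adjusted p-values of 0.00106, 0.000739 and 0.0321, so that it called 7 members. *Dgat2* also passed with only the groups compared (adjusted p in edgeR 0.0447), and *Fasn* with gene length offsets, at 0.82 (adjusted p in edgeR 0.0385). *Scd2* and *Dgat1*, at 0.03 ± 0.16 and 0.05 ± 0.13, were close to 0 (adjusted p in edgeR 0.929 and 0.863). The 3 SPF 5xFAD libraries are those with the neutrophil markers named above. In GF against SPF 5xFAD mice, 4 of 4 tested neutrophil markers and 1 of 4 monocyte markers were called lower, and of 10 microglial markers 2 were called higher and 2 lower. Summed astrocyte markers were at 155 to 189 CPM in GF and 225 to 240 CPM in SPF 5xFAD mice, with 0 of 7 called. This sum was mostly *Slc1a3*, at 151 to 324 CPM over the 28 libraries. The other astrocyte markers had medians of at most 1.31 CPM. The part of other cells in the values of the members was not tested.

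GF and ABX 5xFAD mice differed in the same direction. *Plin2* and *Fabp5* rose and *Acsl1* fell, 3 of 10 members, against 10.6% of all genes called, 6.07% higher and 4.52% lower. The values were 0.69 ± 0.12 for *Plin2*, 1.09 ± 0.33 for *Fabp5* and -0.59 ± 0.13 for *Acsl1* (adjusted p in edgeR 0.00123, 0.0299 and 0.00498). All 5 GF mice lay above all 6 ABX mice in *Plin2*. Here 3 of 4 tested neutrophil markers, 1 of 7 markers of border-associated macrophages, 2 of 7 astrocyte, 1 of 7 neuron and 1 of 4 monocyte markers and the 1 tested T and B cell marker were called lower in GF mice, as were 3 of 10 microglial markers, with 1 higher. Summed neutrophil markers were at 117 CPM in FAD_ABX_1151 and at most 0.774 CPM in the other 5 ABX 5xFAD mice. Summed astrocyte markers, mostly *Slc1a3*, were at 155 to 189 CPM in GF and 214 to 319 CPM in ABX mice. The part of other cells in the values was not tested. For *Plin3* the log2 fold change was 0.48 ± 0.16 and for *Fabp3* 1.38 ± 0.51 (adjusted p in edgeR 0.0573 and 0.0782). Without mouse FAD_GF_201, *Plin3* and *Fabp3* were also called, 5 members in all, with adjusted p-values in edgeR of 0.0201 and 0.0457. DESeq2 and voomWithQualityWeights called both as well. *Plin3* passed under 6 of the alternatives in all and *Fabp3* under 4. *Fasn*, *Ch25h* and *Dgat2*, at 0.54 ± 0.22, 0.82 ± 0.41 and 1.48 ± 0.77, did not pass (adjusted p in edgeR 0.109, 0.210 and 0.226). *Fasn* passed with gene length offsets and without FAD_ABX_1460 (adjusted p in edgeR 0.0216 and 0.0487). *Fabp5* was lost without FAD_GF_181, FAD_GF_184, FAD_ABX_1452, FAD_ABX_1453 or FAD_ABX_1151 (0.0531 to 0.139), over the 26 mice without FAD_ABX_1151 and FAD_ABX_1482 (0.0503) and with only the groups compared (0.119). *Acsl1* was lost with only the groups compared, at an adjusted p in edgeR of 0.0587. Within the numbering style that these mice share, without FAD_ABX_1151, the log2 fold changes were 0.61 for *Plin2* and -0.60 for *Acsl1* (adjusted p in edgeR 0.00407 and 0.00973). FAD_GF_201 had the lowest value of the GF 5xFAD mice for 8 of 10 members, the exceptions being *Dgat1* and *Acsl1*.

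Between ABX and SPF 5xFAD mice no difference was detected. edgeR called 0 members and 0 genes of all tested (0%), voomWithQualityWeights and DESeq2 called 0 members, and at an unadjusted p under 0.05 there were 1085 genes, 0 of them members. The members' log2 fold changes lay between -0.18 ± 0.15 for *Scd2* and 0.27 ± 0.39 for *Fabp5*. As the SPF group held 3 mice, whose *Plin2* alone ranged from 48.9 to 75.04 CPM, differences could have been missed, large ones included. Of 4 tested neutrophil markers 0 were called, at sums of 56.5 to 221 CPM in SPF mice. ABX 5xFAD mice other than FAD_ABX_1151 had sums of at most 0.774 CPM. Summed markers of border-associated macrophages, with 0 of 7 called, were at 16.1 to 29.2 in SPF and 33.99 to 253 CPM in ABX mice. The part of these cells in the values was not tested. FAD_ABX_1151 alone among the ABX mice shares the numbering style of the SPF mice.

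**Figure D3:**
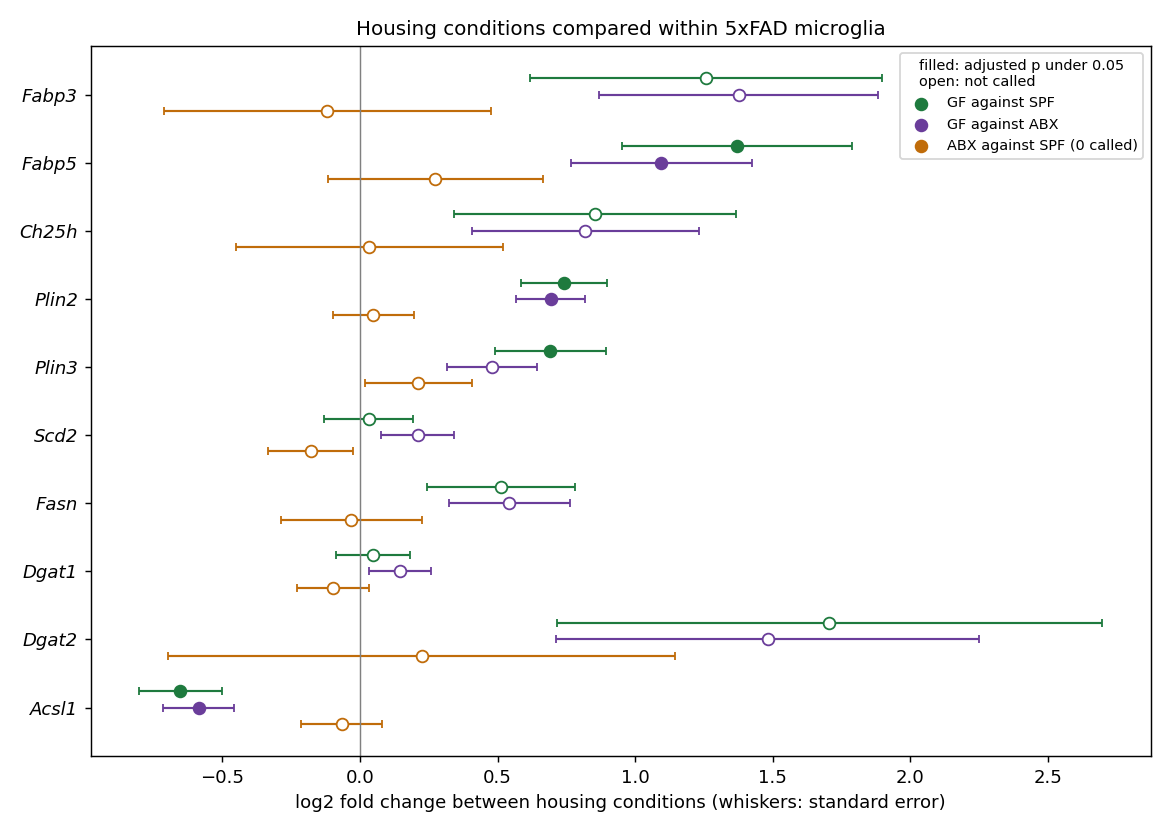
Log2 fold change between housing conditions within 5xFAD mice (x axis) for each member (y axis), with standard errors as whiskers; filled points passed an adjusted p of 0.05. Both comparisons of GF mice show *Plin2* and *Fabp5* to the right of 0 and *Acsl1* to the left, and 0 members passed for ABX against SPF. The 3 comparisons share their groups.

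Among WT mice 1 member, *Fasn*, was called between housing conditions. GF against SPF gave 0 members called where 1.62% of all genes were called. All 10 members had a positive value, with a median of 0.29 where that of all genes tested was -0.01. In this comparison 5 of 7 markers of border-associated macrophages were called higher and 1 of 7 astrocyte markers lower. The part of these cells was not tested. *Plin2* and *Plin3*, at 0.30 ± 0.14 and 0.45 ± 0.18, had unadjusted p-values of 0.0378 and 0.0196 and adjusted p-values in edgeR of 0.263 and 0.195, and voomWithQualityWeights called *Plin3* (0.0436). ABX against SPF gave 0 members in edgeR, DESeq2 and voomWithQualityWeights, and 0% of all genes in edgeR, with 687 genes and 2 members at an unadjusted p under 0.05. These were *Fasn*, with a log2 fold change of -0.96 ± 0.24 and an unadjusted p of 0.000352 in edgeR, and *Dgat2*, with -2.66 ± 1.05 and an unadjusted p of 0.0176. Both had an adjusted p of 1. The value of *Dgat2* was -3.58 without WT_ABX_909, -2.05 without WT_SPF_912 and -1.72 with voomWithQualityWeights. GF against ABX gave 1 member, *Fasn*, called higher at 1.23 ± 0.25 (adjusted p in edgeR 0.00443), where 6.88% of all genes were called and 4.48% higher. All 4 GF WT mice lay above all 5 ABX WT mice. In the same comparison 5 of 7 markers of border-associated macrophages were called higher (sums of 10.7 to 43.9 CPM in GF WT and 3.80 to 5.90 CPM in ABX WT mice), and their part in this call was not tested. Without WT_ABX_910, the ABX WT mouse with 2.18 CPM of *Ch25h*, that gene was called higher in GF mice as well (adjusted p in edgeR 0.0456), which made 2 members.

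Per length of the gene, the members spanned a wide range. In SPF WT mice *Scd2* came first with 29.3 ± 3.26 RPKM, followed by *Dgat1* with 15.5 ± 1.71, *Plin2* with 10.7 ± 1.19, *Plin3* with 9.23 ± 1.12, *Acsl1* with 6.01 ± 0.299 and *Fasn* with 2.47 ± 0.632 RPKM (SD, n = 5). *Ch25h*, *Fabp3*, *Dgat2* and *Fabp5* were at 0.199 RPKM or below. The ranges of *Plin2* and *Plin3* overlapped, as did those of neighbours among the last 4 genes. The place of *Plin3* depends on its length, which is 2159 bases in the deposited table and 3786 bases in GENCODE M21. With the latter, an alternative chosen after seeing the data, it had 5.26 ± 0.639 RPKM in SPF WT mice (SD, n = 5), below *Acsl1* with overlapping ranges, and 12.6 ± 2.64 RPKM in GF 5xFAD mice. *Ch25h* had the second highest mean in each 5xFAD group, with 24.6 ± 12.7 RPKM in SPF (SD, n = 3), 25.2 ± 6.37 RPKM in ABX (n = 6) and 44.5 ± 14.9 RPKM in GF mice (n = 5). Its range overlapped with that of *Plin2* in all 3 groups, and with that of *Scd2* in ABX and in GF mice, the latter with 47.4 ± 7.82 RPKM of *Scd2*. In GF 5xFAD mice the means of *Fabp3*, 8.90 ± 3.31 RPKM, and *Fasn*, 5.42 ± 1.33 RPKM, were above that of *Acsl1*, 4.05 ± 0.772 RPKM, with ranges that overlapped. In SPF and ABX 5xFAD mice *Acsl1*, with 6.36 ± 0.879 and 6.07 ± 1.17 RPKM, had a higher mean than both.

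The members did not all vary together. Over the 28 libraries, which share the genotype difference, Pearson's r of log2 CPM was 0.95 for *Fabp5* and *Ch25h* and 0.94 for *Fabp3* and *Fabp5*, but within groups it was 0.34 and 0.21. *Plin2* and *Plin3* had an r of 0.93 over all libraries and of 0.72 within groups, the highest within-group value of the 45 pairs of members. *Acsl1* went the other way within groups too, with -0.56 against *Plin2* and -0.59 against *Plin3*. Gene length offsets, which made the fall of *Acsl1* between GF and SPF 5xFAD mice smaller, were not applied to the correlations. *Scd2* and *Dgat2* had 0.83 and 0.59, and *Scd2* and *Fasn* 0.79 and 0.41. In SPF 5xFAD mice, for example, FAD_SPF_1144 was the highest in *Plin2* and *Plin3* and the lowest in *Fasn* and *Acsl1*, and in ABX 5xFAD mice FAD_ABX_1482 was the highest in *Plin2* and *Plin3* and the lowest in *Scd2*, *Dgat2* and *Acsl1*.

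**Figure D4:**
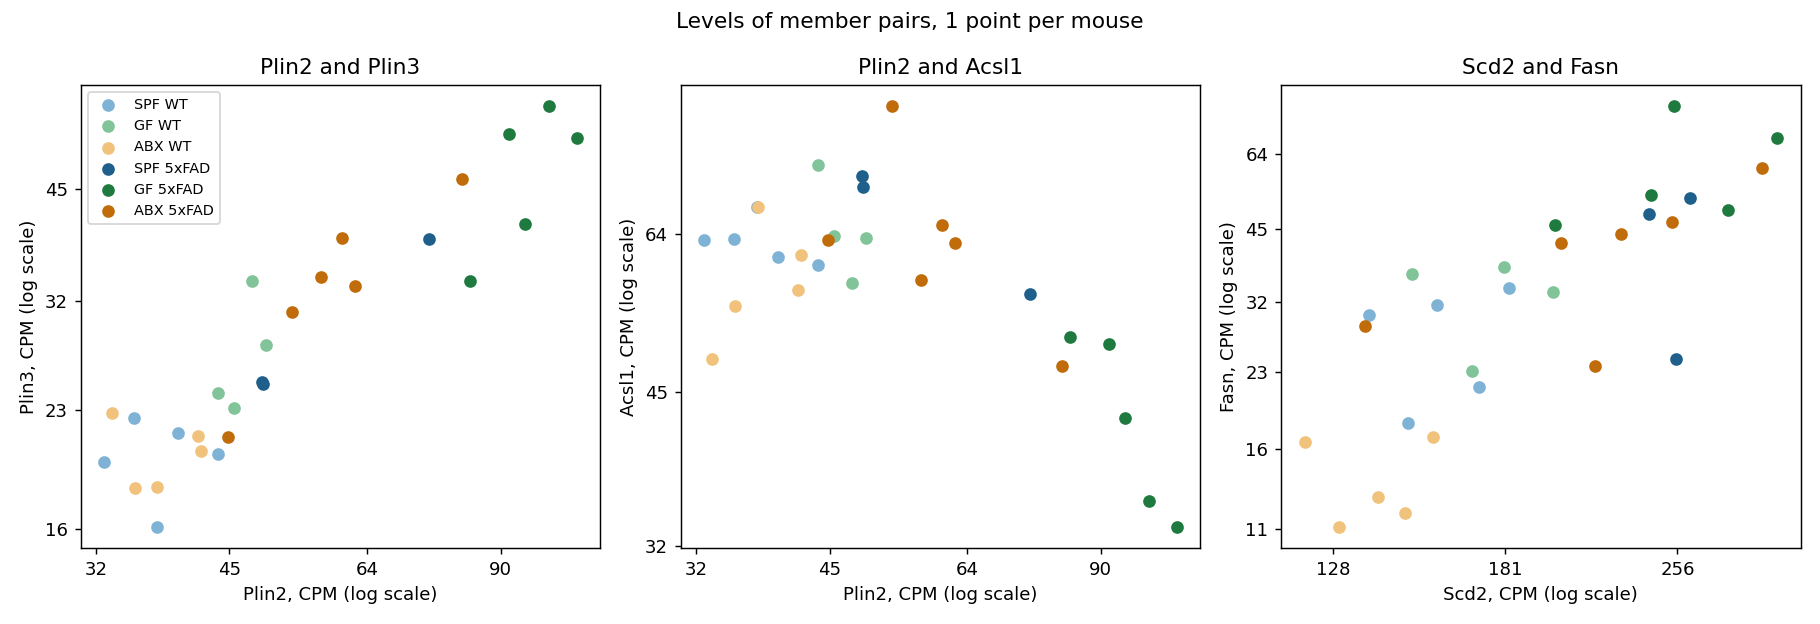
Levels of *Plin2* with *Plin3*, *Plin2* with *Acsl1*, and *Scd2* with *Fasn* (CPM, log axes), 1 point per mouse and 1 colour per group. The first pair rises together (r of 0.93 over 28 libraries), and the GF 5xFAD mice combine the highest *Plin2* with low *Acsl1*.

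Among 9044 other genes of at least 3 log2 CPM on average, those most like each member over the 28 libraries were named as a description. *Fabp3* was most like *Lyz2*, *Ccl3* and *Itgax*, with r of 0.97 each. *Fabp5* was most like *Csf1*, *Lyz2* and *Cst7*, and *Ch25h* like *Bhlhe40*, *Ank* and *Cst7*, with r of 0.96 to 0.97. These values share the genotype difference, and within groups r was 0.19 to 0.48 for *Fabp5*, 0.26 to 0.57 for *Ch25h* and 0.61 to 0.68 for *Fabp3*. *Plin2* was most like *Gde1*, *Gsto1* and the ferritin light chain gene *Ftl1*, and *Plin3* like *Echs1*, *H2-DMa* and the ribosomal protein gene *Rplp0*. *Scd2* (*Glb1*, *Myo1e*) and *Dgat2* (*Glb1*, *Lipa*, *Shisa5*) shared the lysosomal galactosidase *Glb1*. The genes nearest to *Fasn* were *Myo9b*, *Jup* and *Man2b2*. *Dgat1* and *Acsl1* had weaker neighbours, at most 0.72 with *Irf5* and 0.79 with *Usp6nl*.

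Other genes of lipid metabolism were taken from 8 lists. Of 148 genes, 110 could be tested. Of these 9 rose and 0 fell in SPF, 23 rose and 2 fell in GF, and 23 rose and 3 fell in ABX mice between the genotypes, which is 8.18%, 22.7% and 23.6% against 4.57%, 15.6% and 14.4% of all genes tested. Between GF and SPF 5xFAD mice 19 rose and 5 fell (21.8% against 12.8%). The medians of the 110 genes were 0.02, 0.10, 0.14 and 0.13 in these comparisons.

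In uptake and binding, 7 genes were tested. In SPF, GF and ABX mice 2, 3 and 4 of them rose, against 3.73%, 9.43% and 9.45% of all genes. *Lpl*, the lipoprotein lipase that frees fatty acids from triglyceride outside the cell, went from 37.7 ± 5.62 to 594 ± 163 CPM in SPF mice (SD, n = 5 and n = 3). The log2 fold changes were 3.98 ± 0.25 (SPF), 3.99 ± 0.27 (GF) and 3.89 ± 0.24 (ABX) (adjusted p in edgeR 2.38e-12, 4.86e-12 and 7.26e-13). *Dbi*, which binds acyl-CoA, rose in GF mice by 1.08 ± 0.19 and had -0.01 ± 0.17 in ABX mice (adjusted p in edgeR 0.000189 and 0.969). That difference between GF and ABX mice was itself called (1.09, adjusted p in edgeR 0.0291). *Slc27a1*, a fatty acid transporter, rose in ABX mice by 0.74 ± 0.15 (adjusted p in edgeR 0.000916).

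In synthesis and elongation, 20 genes were tested. Of these 4, 7 and 5 rose in SPF, GF and ABX mice, against 3.73%, 9.43% and 9.45% of all genes. *Acaca*, the acetyl-CoA carboxylase that makes malonyl-CoA for *Fasn*, rose by 2.11 ± 0.30, 2.65 ± 0.31 and 2.18 ± 0.27 (adjusted p in edgeR 1.34e-05, 2.41e-07 and 1.05e-06), from 4.43 ± 1.13 to 19.2 ± 2.37 CPM in SPF mice (SD, n = 5 and n = 3). *Hacd2*, a dehydratase of fatty acid elongation, rose by 0.72 ± 0.12, 1.30 ± 0.11 and 0.69 ± 0.10 (0.000132, 1.00e-09 and 1.37e-05), and the effect in GF mice was larger than in ABX mice by 0.62 (0.0320). *Elovl1*, an elongase of very long chains, was higher in GF 5xFAD than in SPF 5xFAD mice by 0.42 ± 0.09 (adjusted p in edgeR 0.0044). In that comparison 5 genes of the list rose and 1 fell, against 6.97% of all genes called higher and 5.86% lower.

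Among 18 lipid-sensing regulators tested, 2, 4 and 7 rose in SPF, GF and ABX mice and 0 fell. The shares of all genes called higher were 3.73%, 9.43% and 9.45%. *Srebf2*, the main activator of cholesterol synthesis genes, rose by 0.99 ± 0.15, 0.82 ± 0.14 and 1.55 ± 0.13 (adjusted p in edgeR 4.51e-05, 0.000119 and 1.08e-09). Its effects in GF and ABX mice differed by -0.73 (adjusted p in edgeR 0.0474), a call lost in 25 of 38 alternatives. *Insig1*, which holds the SREBP proteins in the endoplasmic reticulum and is also their target, rose by 1.33 ± 0.28, 1.25 ± 0.28 and 1.30 ± 0.25 (0.00282, 0.00166 and 0.000401). *Srebf1*, the activator of *Fasn* and other fatty acid synthesis genes, rose in GF and ABX mice by 0.65 ± 0.16 and 1.05 ± 0.15 (0.00433 and 5.28e-06), and was higher in GF 5xFAD than in SPF 5xFAD mice by 0.73 ± 0.18 (0.00739). *Nr1h2*, a receptor for oxysterols, rose in ABX mice by 0.51 ± 0.14 and was higher in GF 5xFAD than in SPF 5xFAD mice by 0.56 ± 0.17 (0.0111 and 0.0261). Of 4 tested genes of the list of oxysterol enzymes and their receptor, to which *Ch25h* belongs by function, 0 were called in edgeR in these 4 comparisons, with 2 results at an unadjusted p under 0.05.

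In the list of triglyceride and sterol ester synthesis, with 11 genes tested, *Soat1*, which makes cholesteryl esters for storage, rose by 0.66 ± 0.10, 0.93 ± 0.09 and 0.60 ± 0.08 in SPF, GF and ABX mice (adjusted p in edgeR 3.85e-05, 2.16e-08 and 6.76e-06). *Agpat2*, an earlier enzyme of triglyceride synthesis, was higher in GF 5xFAD than in SPF 5xFAD mice by 0.47 ± 0.14, and *Lpin2*, a phosphatidate phosphatase, was lower by -0.44 ± 0.12 (0.0216 and 0.0199).

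Of 15 tested droplet proteins and lipases, 0, 2 and 3 rose and 0, 1 and 2 fell in SPF, GF and ABX mice. The shares of all genes were 3.73%, 9.43% and 9.45% higher and 0.837%, 6.2% and 4.98% lower. *Lipa*, the acid lipase of lysosomes, rose in GF and ABX mice by 0.48 ± 0.09 and 0.28 ± 0.08 (adjusted p in edgeR 0.000349 and 0.0174). *Mgll*, the monoacylglycerol lipase, fell in GF mice by 0.40 ± 0.11 on the log2 scale (0.0134). *Hsd17b11*, a droplet dehydrogenase, fell in ABX mice by 0.92 ± 0.14 on the log2 scale (2.02e-05), and this effect differed from that in GF mice by 1.21 (0.00685). GF WT mice had 20.8 ± 0.694 CPM (SD, n = 4) and ABX 5xFAD mice 24.3 ± 3.57 CPM (n = 6), and GF WT mice were below SPF WT mice by -1.08 and ABX WT mice by -1.14 (adjusted p in edgeR 0.000738 and 0.00024). It was also lower in GF 5xFAD than in SPF 5xFAD mice, by -0.56 (0.0256), a call that was lost when any 1 of the 3 SPF mice was left out.

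Fatty acids are burned in mitochondria and peroxisomes. Of 23 tested oxidation genes, 0 were called in SPF, 2 rose in GF, and 1 rose and 1 fell in ABX mice. These counts were not above the shares of all genes, 3.73%, 9.43% and 9.45% higher and 0.837%, 6.2% and 4.98% lower. In SPF mice the 0 calls in edgeR came with an unadjusted p under 0.05 for 1 of 23 genes. Between GF and SPF 5xFAD mice, where 6.97% of all genes were called higher and 5.86% lower, 5 rose and 0 fell. They included *Acaa2*, a thiolase of mitochondrial oxidation, with 0.72 ± 0.15, *Etfb*, a subunit of the electron transfer flavoprotein, with 0.70 ± 0.17, and *Acadvl*, which starts oxidation of very long chains, with 0.53 ± 0.14 (adjusted p in edgeR 0.00364, 0.0069 and 0.0137). *Acadvl* was also higher in GF than in SPF WT mice, by 0.55 (0.0240).

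Of the other acyl-CoA synthetases and thioesterases, 13 were tested. *Acsl5* rose in GF and ABX mice by 0.42 ± 0.09 and 0.44 ± 0.08 (adjusted p in edgeR 0.00146 and 0.000357) and was higher in GF 5xFAD than in SPF 5xFAD mice by 0.34 ± 0.10 (0.0213). *Acsl4*, which prefers arachidonic acid, was lower in GF 5xFAD than in SPF 5xFAD mice by -0.70 ± 0.17 (0.00929), the direction of *Acsl1*. *Acsl3*, a synthetase of nascent lipid droplets, rose in ABX mice by 0.92 ± 0.24 and had -0.68 ± 0.26 in GF mice (0.00965 and 0.0791), and these effects differed by -1.61 between GF and ABX mice (0.0230). *Acot13*, a thioesterase, was higher in GF 5xFAD than in SPF 5xFAD mice by 0.69 ± 0.17 (0.00977).

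Over the 12 comparisons, the 26 genes named from the lists gave 76 called results, of which 39 passed under all alternatives, 29 were lost when 1 mouse was left out, and 0 changed direction. The calls between GF and SPF 5xFAD mice of *Acadvl*, *Nr1h2*, *Acsl5*, *Acot13*, *Lpin2* and *Agpat2* were lost without FAD_SPF_1146 and without FAD_SPF_1148, that of *Etfb* without FAD_SPF_1146, and those of *Srebf1* and *Acsl4* without FAD_SPF_1148. Their highest adjusted p-values over all alternatives, of edgeR and other tools, ran from 0.0552 for *Srebf1* to 0.428 for *Lpin2*. *Acaa2* and *Elovl1* passed in that comparison under all alternatives. Between GF and SPF WT mice, the call of *Acadvl* was lost in turn without each of 6 mice and with GC content offsets (up to 0.106). The fall of *Mgll* in GF mice was lost without FAD_GF_181 or WT_GF_229 (up to 0.0579), and the rise of *Lipa* in ABX mice without WT_ABX_911. *Lpl*, *Acaca*, *Soat1*, *Srebf2* and *Insig1* passed between the genotypes in SPF, GF and ABX mice under all alternatives.

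**Figure D5:**
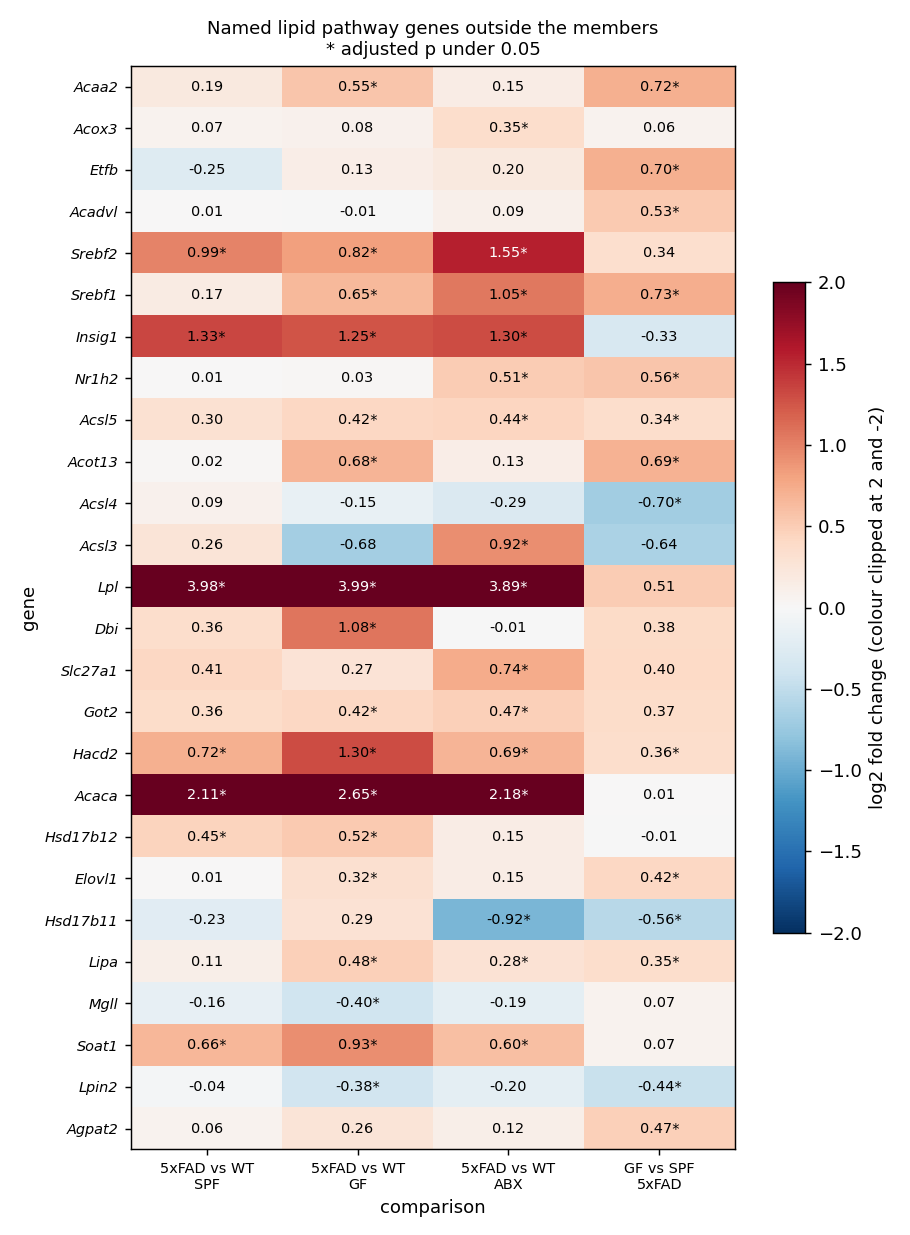
Log2 fold change of 26 named lipid genes outside the members (rows) in 3 comparisons of 5xFAD with WT and in GF against SPF 5xFAD mice (columns), with an asterisk where the adjusted p was under 0.05. *Lpl* (3.89 to 3.99) and *Acaca* (2.11 to 2.65) are high in all comparisons of genotype.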

How the data were processed

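RNA of sorted hippocampal microglia from 28 mice was sequenced as single reads after SMARTer amplification, which does not keep strand. The authors aligned the reads with STAR 2.7.2 and counted them per gene with featureCounts 1.6.2 (GENCODE, GRCm38), and what was deposited are these raw read counts, not normalized. The submitters' processing notes also name a human genome build, GRCh38.p12. Gene coordinates and lengths of the same table were used as deposited, in GRCm38, and 46484 of 48587 symbols were found in GENCODE M21. The 92 spike-in rows were left out, and all columns of counts were used.

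Groups came from the labels. edgeR 4.0.16 in R 4.3.3 was used. The filter was filterByExpr (minimum count 10, minimum total 15), and counts were scaled by TMM and tested by the quasi-likelihood test on 1 term per group over 28 libraries. Benjamini-Hochberg values cover all 15298 genes tested, with a threshold of 0.05. CPM values are TMM-scaled, those of cell type markers refer to library totals, and RPKM values divide by the table's gene length. Correlations used log2 CPM with a prior count of 2. Totals of 14441610 to 29977395 reads leave the spread between mice as the main error, except for genes of a few reads. The members and lists were chosen with earlier results of these data known. Besides the members, the text names up to 4 genes per list with the smallest adjusted p among those called in the 3 comparisons of genotype or in GF against SPF 5xFAD mice at an average of at least 3 log2 CPM, the 3 genes most like each member, and marker genes. Some results that this rule would name are not reported here. Alternatives were RLE factors, library size alone, no filter on low counts, at least 10 counts in every library, DESeq2 1.42.0, voomWithQualityWeights of limma 3.58.1 (the authors' method), only the groups compared, gene length or GC content offsets, 26 mice without FAD_ABX_1151 and FAD_ABX_1482 (a pair chosen from earlier results of these data), and leaving out each mouse. GENCODE M21 gene lengths were added after the data were seen. The procedure was tested on simulated data of GF WT and GF 5xFAD mice alone, with changes larger than many reported here. The simulation does not show how smaller changes, interactions or genes of few reads are handled. Its pass mark for recovered genes was lowered after the result was seen. Promoters came from RefSeq (GRCm38.p6). Figures were drawn with matplotlib.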

Additional observations from a re-analysis of the deposited data

Results flagged for a closer look

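Of 50 sets of values (10 members in the 5 groups of 4 to 6 mice), 1 held a mouse far from the others. *Ch25h* was at 2.18 CPM in ABX WT mouse WT_ABX_910, where the other 4 ABX WT mice had 0 to 0.172 CPM. Chance flags about 1 in 20 such sets. The effect of the genotype on *Acsl1* differed between GF and ABX mice, by a log2 difference of -0.75 ± 0.19 (adjusted p in edgeR 0.0399), the only one of 30 interaction results of members to pass. It was lost in 14 of 38 alternatives, among them 12 that leave out 1 mouse (FAD_ABX_1452, FAD_ABX_1460, WT_ABX_909, WT_ABX_910, WT_ABX_923, FAD_GF_182, FAD_GF_184, FAD_GF_185, WT_GF_199, WT_GF_229, WT_GF_230 or FAD_SPF_1148). In this interaction 7 of 7 tested markers of border-associated macrophages were called lower too, and their part was not tested. Among the lipid genes named outside the members, 5 also had a genotype effect that differed between GF and ABX mice. These 5 results and that of *Acsl1* include the genotypes in ABX mice, where numbering and genotype cannot be told apart. The log2 differences were -0.73 for *Srebf2*, -1.61 for *Acsl3*, 1.09 for *Dbi*, 0.62 for *Hacd2* and 1.21 for *Hsd17b11* (adjusted p in edgeR 0.0474, 0.0230, 0.0291, 0.0320 and 0.00685), and they were lost in 25, 2, 8, 10 and 0 of 38 alternatives.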

How the results depend on the processing

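Of 32 member results called in the 12 comparisons, 22 passed under every alternative that gave a value and 0 changed direction, and of the other 88, 13 passed under some alternative. With at least 10 counts in every library, *Fabp3*, *Fabp5*, *Ch25h* and *Dgat2* were not tested, which left 2, 5 and 5 members called between the genotypes in SPF, GF and ABX mice. voomWithQualityWeights called 7 members between GF and SPF 5xFAD mice, 5 between GF and ABX 5xFAD mice, 1 between GF and SPF WT mice and 1 for the interaction of GF and SPF, and DESeq2 called 5 between GF and ABX 5xFAD mice. The call of the GF and ABX interaction was lost, at 0 members, with gene length offsets and with only the groups compared. The cause was not tested.

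Leaving out each mouse gave 4 to 5 members in SPF, 7 to 9 in GF and 8 to 9 in ABX mice between the genotypes, 2 to 4 between GF and SPF 5xFAD, 2 to 5 between GF and ABX 5xFAD and 1 to 2 between GF and ABX WT mice, 0 to 1 for the GF and ABX interaction, and 0 in the other 5 comparisons.

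Between GF and SPF 5xFAD mice the direction turned for *Scd2* with library size alone (-0.068) and without the filter on low counts (-0.0011), and for *Dgat1* with library size alone (-0.048), gene length offsets (-0.052) and GC content offsets (-0.10). Leaving out single mice gave -0.054 to 0.11 for *Scd2* and -0.0087 to 0.081 for *Dgat1*. No mean level moved by more than 1 SD with library size alone. No paired analysis was possible because the groups share no replicate numbers, which are mouse numbers. Depth limits *Dgat2* in all groups and *Fabp3*, *Fabp5* and *Ch25h* in WT mice, whose folds rest on few reads.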
